A study of Mus musculus with 8 samples.

Results

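The 10 genes described here, H2-K1, H2-D1, B2m, Tap1, Tap2, Psmb8, Psmb9, Cd74, H2-Aa and H2-Ab1, encode the core of the major histocompatibility complex (MHC) antigen presentation machinery, and they were taken by symbol from the 23183 genes counted in every library. Murine lung ILC2s (group 2 innate lymphoid cells) of C57BL/6 genotype were enriched with a pan-ILC kit and CD45 microbeads from IL-33-treated mice, cultured with IL-2, IL-7 and IL-33, and exposed for 3 h to 5 µM Yoda1, a chemical agonist of the mechanosensitive channel Piezo1, or to 0.1% DMSO as the vehicle. The mice of the study were 6 to 10 weeks old and of both sexes. Bulk mRNA-seq gave 4 DMSO libraries and 4 Yoda1 libraries with 12438009 to 19534653 counts each, so that 1 count was worth 0.0514 to 0.0807 CPM (the count relative to the library total after TMM scaling). The sources do not say whether the libraries of a group came from separate mice or from separate cultures, so p-values measure only the spread between these libraries, which may be technical. The comparison asks whether 3 h of Piezo1 agonism changed the transcripts of antigen presentation in ILC2s.

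MHC class I molecules are assembled with peptide in the endoplasmic reticulum, and then shown on the cell surface, from a heavy chain, such as those of H2-K1 (H-2K) and H2-D1 (H-2D), and the light chain beta-2-microglobulin encoded by B2m. Their peptides are cut in the cytosol by the proteasome, whose inducible subunits are encoded by Psmb8 and Psmb9, and are carried into the endoplasmic reticulum by the transporter made of Tap1 and Tap2. MHC class II molecules, here the I-A alpha chain of H2-Aa and the I-A beta chain of H2-Ab1, are held and routed by the invariant chain Cd74 and present peptides from endosomes to CD4+ T cells. Nearly all nucleated cells carry class I, whereas class II is typical of professional antigen-presenting cells and is also known on ILC2s. Interferon gamma induces both pathways through IRF1 among others, and the coactivators NLRC5 (class I) and CIITA (class II) act on a conserved promoter module of X and Y boxes.

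All 10 genes were annotated as protein coding on GRCm38 (GENCODE M21). Of these, 8 lie in the H2 complex on chromosome 17, where Psmb9 (34181987 to 34187764, minus strand), Tap1 (34187553 to 34197225, plus), Psmb8 (34197721 to 34201454, plus) and Tap2 (34203527 to 34216321, plus) follow each other. H2-K1 (33996017 to 34000347, minus) lies before this block, H2-Ab1 (34257689 to 34269419, plus) and H2-Aa (34282744 to 34287823, minus) lie after it, and H2-D1 (35262730 to 35267499, plus) lies farther along. B2m is on chromosome 2 (122147686 to 122153083, plus) and Cd74 lies on a further chromosome.

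Promoter windows from RefSeq (GRCm38.p6, 250 bases before to 50 bases after the start) were matched for 7 of the 10 genes, without Tap2, Cd74 and H2-Ab1. The 250 bases upstream of H2-K1 (chr17:34000348-34000597, minus strand), H2-D1 (chr17:35262844-35263093, plus strand), B2m (chr2:122147437-122147686, plus strand) and H2-Aa (chr17:34287824-34288073, minus strand) are printed 5′ to 3′ on the gene's strand, because these 4 promoters shared a spaced pair of motifs and cover both MHC classes. Capitals mark every match of 5 motifs on either strand, and positions are counted from the start, with -1 the base before it.
H2-K1: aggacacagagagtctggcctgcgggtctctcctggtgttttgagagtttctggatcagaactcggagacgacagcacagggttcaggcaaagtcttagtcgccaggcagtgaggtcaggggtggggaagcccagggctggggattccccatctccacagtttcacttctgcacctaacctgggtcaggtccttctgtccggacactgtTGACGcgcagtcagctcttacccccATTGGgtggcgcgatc
H2-D1: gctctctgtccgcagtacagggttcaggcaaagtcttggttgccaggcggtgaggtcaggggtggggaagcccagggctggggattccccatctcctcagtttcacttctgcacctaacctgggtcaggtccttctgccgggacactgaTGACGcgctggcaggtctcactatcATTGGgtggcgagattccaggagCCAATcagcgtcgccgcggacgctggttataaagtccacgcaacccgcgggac
B2m: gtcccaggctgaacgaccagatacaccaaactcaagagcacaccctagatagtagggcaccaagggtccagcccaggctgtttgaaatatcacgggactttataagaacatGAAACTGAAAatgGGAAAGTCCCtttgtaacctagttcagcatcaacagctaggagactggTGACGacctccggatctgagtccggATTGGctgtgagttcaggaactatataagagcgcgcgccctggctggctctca
H2-Aa: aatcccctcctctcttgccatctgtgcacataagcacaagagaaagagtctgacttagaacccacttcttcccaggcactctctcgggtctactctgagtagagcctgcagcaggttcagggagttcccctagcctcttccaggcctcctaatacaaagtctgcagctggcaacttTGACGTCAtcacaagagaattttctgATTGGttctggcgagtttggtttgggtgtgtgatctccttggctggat

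The motifs were TGACG (the X2 box), CCAAT (the Y box, read as ATTGG on the other strand), TTCNNNGAA (a gamma-activated site), the interferon-stimulated response element and the kappaB site, searched on both strands. A match is a description of letters, not proof of binding. TGACG followed on the same strand by ATTGG after 20 bases stood at -101 in H2-D1, at -78 in B2m and at -41 in H2-K1, and after 21 bases at -74 in H2-Aa. This spaced pair was searched for after the sequences had been seen. It occurred in 4 of the 7 windows and in 45 of all 27025 windows of the same length (0.167%). It was not found in the windows of Tap1, Psmb9 or Psmb8. Of the single motifs, CCAAT was in 6 of the 7 windows and in 37.9% of all windows, and TGACG was in 6 of the 7 and in 21.02% of all windows. In H2-Aa the TGACG lies in the palindrome TGACGTCA, so it was matched on both strands there.

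B2m alone matched the letters used here for the interferon-stimulated response element, as GAAACTGAAA at -139, beside a kappaB match, GGAAAGTCCC, at -126. These patterns were in 3.49% and 1.62% of all windows. Other forms of these sites were not searched for, so H2-K1 and H2-D1 are not shown to lack them. Psmb8 alone matched the letters of the gamma-activated site, at -97 (8.47% of all windows). No window of the 7 held the E-box CACGTG, which was in 7.24% of all windows. The upstream sequences of H2-K1 and H2-D1 were paralogous, with 89.5% identity over their aligned bases and an identical run of 47 bases that began at -141 in H2-K1 and at -201 in H2-D1. Tap1 and Psmb9 are divergent, with starts 226 bases apart, so their windows overlap by 275 bases. Their CCAAT and TGACG matches are the same sites read on opposite strands, so the counts of single motifs above include each of these sites for both genes.

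Before the results, the identity of the cells was checked with marker lists. All 11 ILC2 markers were detected, with a summed level of 14180 to 14650 CPM in DMSO libraries and 16120 to 16480 CPM in Yoda1 libraries, with Il13 as the most abundant. Markers of professional antigen-presenting cells were mixed, with the B cell list low and some macrophage or monocyte and dendritic cell markers detected. Of 7 B cell markers in the files, Pax5 was at 0 and Ms4a1 and Fcer2a had at most 3 counts in any library, and the list summed to 8.57 to 9.59 CPM in DMSO and 8.28 to 9.97 CPM in Yoda1. Of 10 macrophage or monocyte markers, Marco and C1qa were at 0 and Csf1r, Mrc1, Lyz2 and Fcgr1 had at most 3 counts, and the sum of 220.5 to 239.8 CPM in DMSO and 203 to 210.5 CPM in Yoda1 came mainly from Ccr2. Of 10 dendritic cell markers, Cd209a was at 0 and Clec9a had at most 3 counts, with sums of 118 to 125.4 CPM in DMSO and 119 to 123 CPM in Yoda1. Flt3 (1 to 8 counts per library), Siglech (1 to 4) and Clec10a (0 to 4) were also low. The highest of the 10 by DMSO mean were Ccr7 (62.7 CPM), Batf3 (29.6 CPM) and Xcr1 (16.5 CPM), before Itgax (6.89 CPM) and Zbtb46 (5.39 CPM). In bulk libraries, fewer cells of a type and less RNA per cell cannot be told apart. Every pair of libraries within a group differed by more than sampling noise (chi-square per gene 2.01 to 6.62).

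The class I heavy chains and B2m were among the most abundant transcripts in DMSO-treated ILC2s, and class II transcripts were also present. By DMSO level among the 12239 genes that passed the count filter, H2-K1 ranked 10, H2-D1 ranked 14 and B2m ranked 16. Cd74 ranked 132, before Tap1 (217), Psmb8 (357) and Tap2 (363). H2-Aa ranked 1344 and H2-Ab1 ranked 1346, before Psmb9 at 2021. The 10 genes took 1.21% to 1.34% of all counts of a library, of which H2-K1, H2-D1 and B2m together took 0.947% to 1.06%, and Cd74, H2-Aa and H2-Ab1 took 0.113% to 0.121%. These ranks are of CPM, which also depends on transcript length.

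Per length, as CPM per kb of exon sequence, B2m was highest at 3261 ± 92.2 (SD, n = 4, here and in the following levels). H2-K1 followed at 1285 ± 57.4 and H2-D1 at 1162 ± 32.6, so each heavy chain stood at less than the light chain they share. Cd74 came next at 512 ± 16.0, above every gene of peptide supply. Psmb8 (126 ± 5.98), Tap1 (113 ± 2.55) and Tap2 (111 ± 3.23) lay close together, and the ranges of Tap1 and Tap2 overlapped. H2-Ab1 (60.4 ± 2.80), H2-Aa (40.9 ± 1.64) and Psmb9 (30.3 ± 0.779) were lowest. All other neighbours in this order had ranges that did not overlap. With the longest transcript as the length, H2-Ab1 (128 ± 5.94) stood before Tap2 (122 ± 3.55), with overlapping ranges, and the rest of the order was kept. The order rests on annotated lengths, and which transcripts these cells make was not tested. H2-Aa and H2-Ab1 had nearly equal means (155.3 and 155.1 CPM) and differ here through exon lengths of 3.798 and 2.568 kb. The SDs and ranges do not cover this uncertainty of length.

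**Figure D1:**
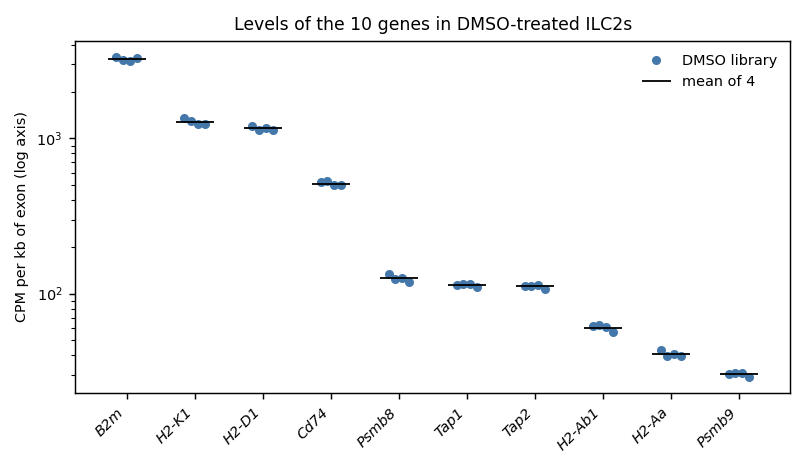
Level of each of the 10 genes in the 4 DMSO libraries (points) and their mean (line), in CPM per kb of exon on a log axis. The order runs from B2m (mean 3261) to Psmb9 (30.3), and only Tap1 and Tap2 overlap as neighbours.

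The class I heavy chain genes are close paralogs, which bears on how reads are assigned. Of the windows of 50 bases in the longest H2-K1 transcript, 8.11% occurred in transcripts of other genes, 6.52% in H2-D1. For H2-D1 the share was 14.3%, for Tap1 0.647%, for Tap2 0.737% and for H2-Aa 0.599%, and it was 0 for B2m, Psmb8, Psmb9, Cd74 and H2-Ab1. With windows of 100 bases, H2-D1 kept 4.64% and the other members had 0. Exons of Tap1 and Psmb9 overlap on opposite strands. The kit keeps strand information, but whether the counting used it is not given in the sources used here, so reads in that overlap cannot be assigned with certainty.

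In the comparison of Yoda1 with DMSO, 2 of the 10 genes were higher, H2-D1 and B2m, and none was lower at an adjusted p under 0.05 (edgeR quasi-likelihood test, Benjamini-Hochberg adjustment over all genes tested). Both were class I genes, and the means were 10.2% higher for H2-D1 and 8.82% higher for B2m. All 10 genes passed the count filter. Over all 12239 genes tested, 6.04% were called higher and 4.84% lower (10.9% in all), so 1331 genes were called. The groups did not overlap for the same 2 genes, against 8.44% of all genes higher and 7.05% lower without overlap. Since the members were chosen with earlier results of these data known, these counts are no test of the 10 genes against all genes. The median log2 fold change of the 10 was 0.014, with 7 above 0, beside a median of -0.0053 over all genes.

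**Figure D2:**
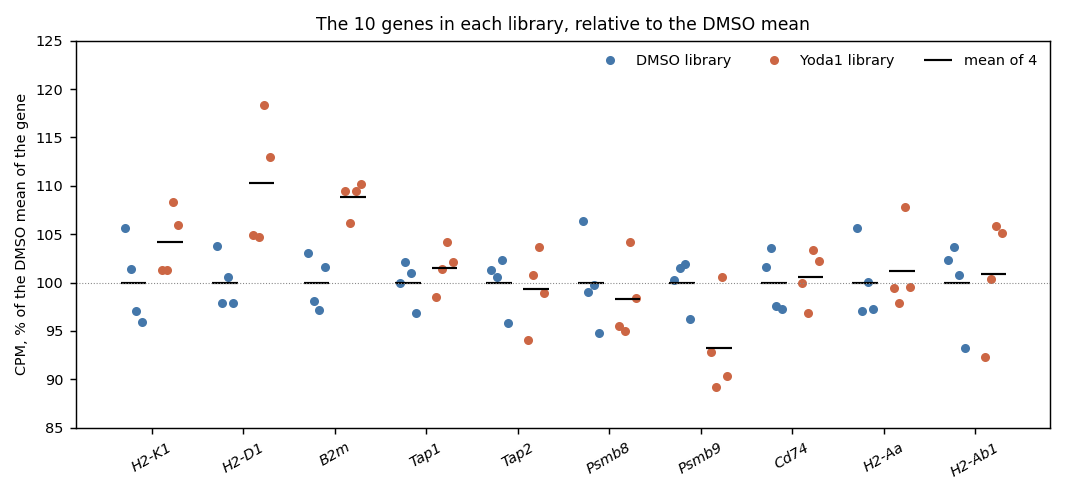
CPM of each gene in each library as a percent of that gene's DMSO mean, for 4 DMSO libraries (blue) and 4 Yoda1 libraries (orange), with lines at the means. The Yoda1 points of H2-D1 (104.7% to 118.3%) and of B2m (106.1% to 110.2%) lie above all DMSO points of the same gene, and the other genes overlap.

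H2-D1, a classical class I heavy chain, measured 3109.7, 2933, 3014 and 2933 CPM in the 4 DMSO libraries and 3144, 3139, 3546 and 3388 CPM in the 4 Yoda1 libraries. The groups did not overlap, although the first pair of Yoda1 libraries lay close to the highest DMSO library and the other pair lay well above. The log2 fold change was 0.14 (SE 0.039, 95% interval 0.065 to 0.216, edgeR adjusted p = 0.0158). The call depended on 4 of the 8 libraries. Without DMSO replicate 2 (log2 fold change 0.13, adjusted p = 0.0674), DMSO replicate 4 (0.13, adjusted p = 0.0607), Yoda1 replicate 3 (0.11, adjusted p = 0.0784) or Yoda1 replicate 4 (0.13, adjusted p = 0.0787) it was no longer past the threshold, and with upper-quartile scaling it was 0.11 (adjusted p = 0.0672). Over all 15 alternatives the edgeR, DESeq2 and limma adjusted p ran from 0.00122 to 0.0787, with H2-D1 higher in each.

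B2m, the light chain shared by all class I molecules, measured 2891, 2752.5, 2724 and 2851 CPM in DMSO and 3071, 2977, 3069 and 3091 CPM in Yoda1. All 4 Yoda1 libraries were above all 4 DMSO libraries, and the Yoda1 libraries lay closer together (SD 51.1) than the DMSO libraries (SD 79.3). The log2 fold change was 0.12 (SE 0.034, 95% interval 0.056 to 0.188, edgeR adjusted p = 0.0170). The call was lost without DMSO replicate 2 (0.11, adjusted p = 0.0682), DMSO replicate 3 (0.11, adjusted p = 0.0591), Yoda1 replicate 1 (0.12, adjusted p = 0.0655) or Yoda1 replicate 4 (0.12, adjusted p = 0.0757), and with scaling by library size only (0.10, adjusted p = 0.0532) or by upper quartile (0.092, adjusted p = 0.0803). B2m was higher in each of the 15 alternatives, with an adjusted p from 0.00197 to 0.0803. The TMM factors were 1.003 to 1.01 in DMSO libraries and 0.988 to 0.997 in Yoda1 libraries, so the scaling itself differed slightly between the groups. Over all genes, 739 were higher and 592 lower with TMM, 553 higher and 809 lower with library size only, and 505 higher and 958 lower with upper-quartile factors.

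H2-K1, the other classical heavy chain in the list, measured 3990.3, 3831, 3664 and 3622 CPM in DMSO and 3826, 3825, 4091 and 3999.8 CPM in Yoda1. The ranges overlapped, since DMSO replicate 1 was above a pair of Yoda1 libraries. The log2 fold change was 0.059 (SE 0.037, edgeR adjusted p = 0.327), with a 95% interval of -0.013 to 0.131 that reaches the size seen for B2m. Within a library, where scaling cancels, the log2 ratio of H2-K1 to H2-D1 was 0.333 ± 0.048 in DMSO and 0.253 ± 0.038 in Yoda1 (SD, n = 4), a difference of -0.079 (two-sided exact permutation test, p = 0.0857, adjusted 0.229 over 8 ratios). The log2 ratio of H2-K1 to B2m differed by -0.062 (exact permutation test, p = 0.171, adjusted 0.274). A different response of H2-K1 from H2-D1 or B2m was therefore not shown. The smallest p that 4 libraries against 4 allow is 0.0286.

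No gene of peptide supply to class I was called. Tap1 measured 621, 635, 627 and 602 CPM in DMSO and 612, 629.7, 648 and 634 CPM in Yoda1, a log2 fold change of 0.022 (SE 0.034, edgeR adjusted p = 0.749, 95% interval -0.045 to 0.089). Tap2, its partner in the transporter, measured 426, 423, 430.4 and 403 CPM in DMSO and 395, 424, 436 and 416 CPM in Yoda1, a log2 fold change of -0.0094 (SE 0.037, edgeR adjusted p = 0.910, 95% interval -0.081 to 0.062). The ranges of both genes overlapped between the groups. The log2 ratio of Tap1 to Tap2 was 0.563 ± 0.023 in DMSO and 0.595 ± 0.029 in Yoda1 (exact permutation test, p = 0.171, adjusted 0.274, n = 4).

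Psmb8 encodes the immunoproteasome subunit that replaces Psmb5, and it measured 452, 421, 424 and 403 CPM in DMSO and 406, 403, 443 and 418 CPM in Yoda1. The groups overlapped throughout, with a log2 fold change of -0.026 (SE 0.039, edgeR adjusted p = 0.743, 95% interval -0.101 to 0.050). Psmb9 encodes the subunit that replaces Psmb6 and measured 111, 112, 113 and 107 CPM in DMSO and 103, 98.8, 111 and 100.04 CPM in Yoda1. A group of 3 Yoda1 libraries lay below all DMSO libraries, and Yoda1 replicate 3 lay among them. The log2 fold change of Psmb9 was -0.10 (SE 0.042, edgeR adjusted p = 0.115, unadjusted p = 0.0201). It passed the threshold without Yoda1 replicate 3 (-0.14, edgeR adjusted p = 0.0342) and with upper-quartile scaling (-0.13, adjusted p = 0.0376), and the adjusted p ran from 0.0342 to 0.296 over the 15 alternatives.

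The immunoproteasome subunits were also set against the constitutive subunits they replace, as log2 ratios of counts within each library. Psmb9 to Psmb6 had a log2 ratio of 0.324 ± 0.058 in DMSO and 0.172 ± 0.061 in Yoda1 (SD, n = 4), and the groups did not overlap, with 0.238 as the lowest DMSO value and 0.230 as the highest Yoda1 value. The difference of -0.15 gave an exact permutation p = 0.0286, the smallest possible here, and 0.229 after Benjamini-Hochberg adjustment over 8 ratios. Psmb8 to Psmb5 stood at 2.19 ± 0.047 in DMSO and 2.13 ± 0.021 in Yoda1 (exact permutation test, p = 0.0857, adjusted 0.229), which is 4.56 and 4.36 counts of Psmb8 for each count of Psmb5. Psmb10, the inducible subunit that replaces Psmb7, had a log2 ratio to Psmb7 of 0.364 ± 0.079 in DMSO and 0.354 ± 0.048 in Yoda1 (exact permutation test, p = 0.971). No ratio of the 8 passed after adjustment.

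Neither class II chain nor Cd74 was called. Cd74, the invariant chain, measured 873, 890.2, 838 and 835 CPM in DMSO and 859, 832, 888 and 878 CPM in Yoda1. Its log2 fold change was 0.0085 (SE 0.035, edgeR adjusted p = 0.916, 95% interval -0.060 to 0.077). The 2 groups covered nearly the same range.

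H2-Aa, the I-A alpha chain, measured 164, 151, 155 and 151 CPM in DMSO and 154, 152, 167 and 155 CPM in Yoda1 (log2 fold change 0.016, SE 0.040, edgeR adjusted p = 0.857). H2-Ab1, the I-A beta chain, measured 159, 161, 156 and 145 CPM in DMSO and 143, 156, 164 and 163 CPM in Yoda1 (log2 fold change 0.013, SE 0.043, edgeR adjusted p = 0.890). The 95% intervals of -0.063 to 0.094 and -0.071 to 0.098 leave room for changes of that size in either direction. For each count of H2-Ab1 there were 5.54 counts of Cd74 in DMSO and 5.53 in Yoda1 (exact permutation test on the log2 ratio, p = 0.971). The log2 ratio of H2-Aa to H2-Ab1 was near 0 in both groups, 0.0022 ± 0.070 in DMSO and 0.0065 ± 0.081 in Yoda1 (exact permutation test, p = 0.971, n = 4).

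Class II can come from other cells in a culture, so the summed markers are given beside these values. A marker sum depends on the genes listed and does not measure how much class II such cells supply. The B cell sum stayed under 10 CPM in every library, against 145 to 164 CPM of H2-Aa or H2-Ab1 in DMSO. The dendritic cell sum of 118 to 125.4 CPM was near that level and overlapped between the groups. It came mainly from Ccr7, Batf3 and Xcr1, while Flt3, Siglech, Clec10a, Clec9a and Cd209a each had at most 8 counts in any library. The macrophage or monocyte sum of 203 to 239.8 CPM was above the level of H2-Aa or H2-Ab1, came mainly from Ccr2, and was lower in Yoda1. Within the dendritic cell list, Xcr1 was higher in Yoda1 (log2 fold change 0.63, edgeR adjusted p = 2.07e-07) and Zbtb46 lower (-0.44, edgeR adjusted p = 0.0335), both at low levels of 16.5 ± 0.568 and 5.39 ± 0.573 CPM in DMSO. Ccr2, which dominated the macrophage or monocyte sum, was lower in Yoda1 (-0.15, edgeR adjusted p = 0.00654). The part of such cells in the class II level was not tested.

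A further 74 genes of the pathway were written out in 8 lists, of which 71 were in the files and 64 passed the count filter. Of these 64, 9 were higher and 1 was lower, beside 6.04% and 4.84% of all genes tested, and in 8 (higher) and 3 (lower) of them the groups did not overlap, beside 8.44% and 7.05% of all genes. The lists were chosen with earlier results of these data known, so these counts are no test of the pathway against all genes. The calls fell in the lists of other class I heavy chains, endosomal processing, transactivators and interferon gamma signalling. None fell among the peptide loading genes, the proteasome partners, the other class II chains or the costimulatory ligands.

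**Figure D3:**
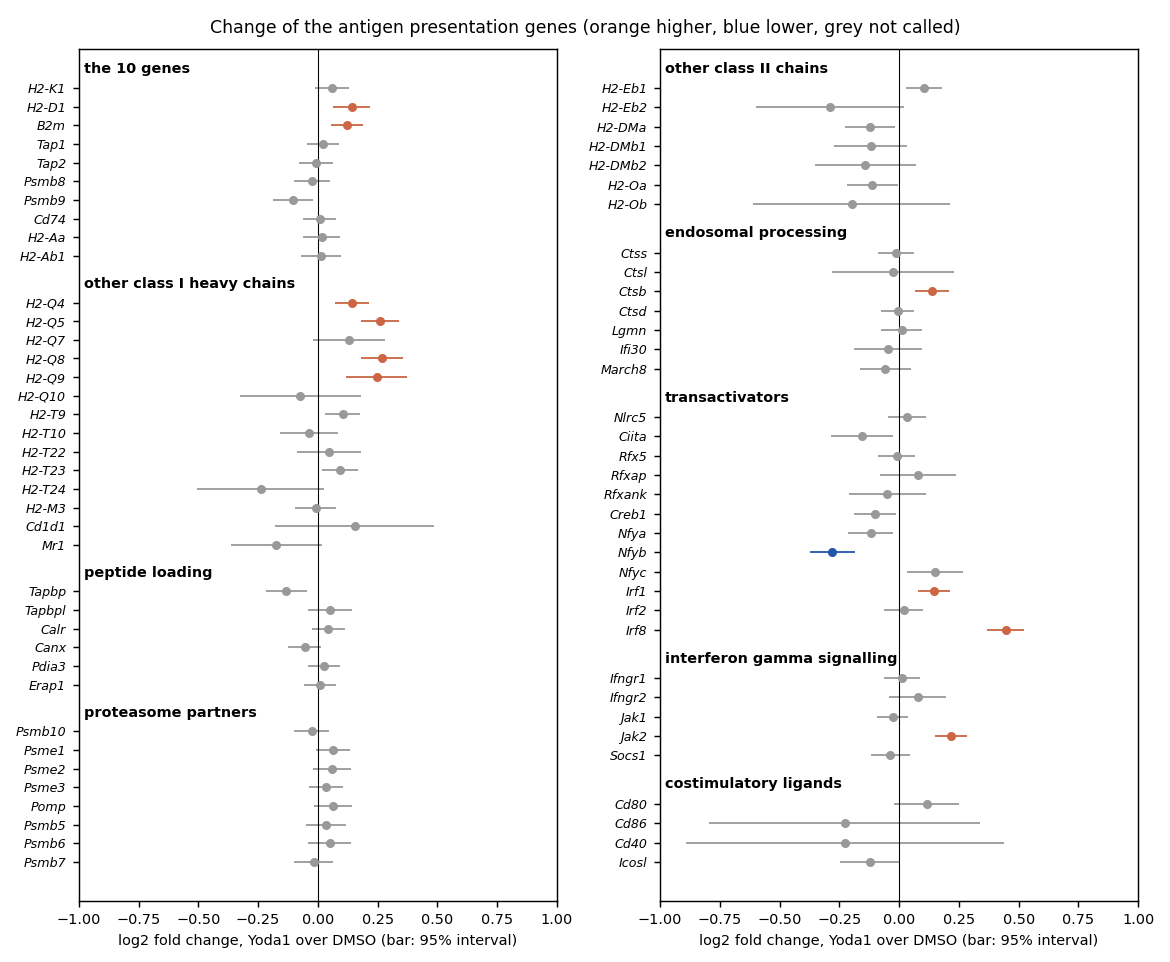
Log2 fold change, Yoda1 over DMSO, of the 10 genes and of the pathway genes tested, by list, with 95% intervals (orange higher, blue lower, grey not called by edgeR at an adjusted p under 0.05). Ifng (1.35) lies off the axis and is not drawn, and H2-D1 and B2m are the members called.

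Among the other class I heavy chains, 4 of the 14 tested genes were higher and none was lower, with a median log2 fold change of 0.098. Over all genes tested, 6.04% were higher and 4.84% lower. All 4 called genes belong to the H2-Q group, the nonclassical class I genes of the Qa series, and H2-Q5 is annotated as a polymorphic pseudogene. H2-Q4 measured 706, 642, 684 and 677 CPM in DMSO and 737, 733, 763 and 758 CPM in Yoda1, with no overlap (log2 fold change 0.14, SE 0.035, edgeR adjusted p = 0.0077). H2-Q5 measured 98.6, 91.8, 97.1 and 98.2 CPM in DMSO and 117, 111, 113 and 120.5 CPM in Yoda1, again without overlap (0.26, SE 0.041, edgeR adjusted p = 4.88e-05). H2-Q8 measured 215, 196, 180 and 196 CPM in DMSO and 237, 226, 251.3 and 236 CPM in Yoda1 (0.27, SE 0.045, edgeR adjusted p = 0.000156). The 4 Yoda1 libraries of H2-Q8 were all above its DMSO libraries.

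H2-Q9 measured 135, 127, 137 and 150.3 CPM in DMSO and 143, 159.6, 180.0 and 167 CPM in Yoda1, and the groups overlapped at 1 library each (log2 fold change 0.25, SE 0.066, edgeR adjusted p = 0.0337). Its call was lost without DMSO replicate 1 (adjusted p = 0.109), DMSO replicate 2 (0.0662), DMSO replicate 3 (0.0900), Yoda1 replicate 2 (0.0721) or Yoda1 replicate 4 (0.0872), with log2 fold changes from 0.21 to 0.25, and edgeR, DESeq2 and limma adjusted p-values ran from 2.00e-07 to 0.109 over the 15 alternatives. H2-Q4 was lost without DMSO replicate 2 alone (0.12, edgeR adjusted p = 0.0545), and its adjusted p ran from 0.00121 to 0.0545. H2-Q5 and H2-Q8 held in all 15. Counts on these genes are uncertain, because 22.03% of the windows of 50 bases in H2-Q4 and 35.4% of those in H2-Q5 occurred in other genes, and H2-Q8 and H2-Q9 had no transcript by that symbol in the annotation. The calls of these H2-Q genes may thus rest partly on the same reads. H2-Q4 also overlaps Gm11131 on the opposite strand.

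Because reads may move between paralogs, the CPM of groups of class I genes were summed as a description. The 9 H2-Q genes summed to 1445 ± 31.9 CPM in DMSO (1399 to 1471) and 1631 ± 69.2 CPM in Yoda1 (1561 to 1722), without overlap. The 8 H2-T and H2-M genes summed to 1262 ± 31.7 and 1331 ± 59.1 CPM, with overlap. All 19 heavy chains summed to 9481 ± 265 CPM in DMSO and 10202 ± 454 CPM in Yoda1 and overlapped, whereas the 17 other than H2-K1 and H2-D1 summed to 2707 ± 45.1 and 2962 ± 125.5 CPM and did not.

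**Figure D4:**
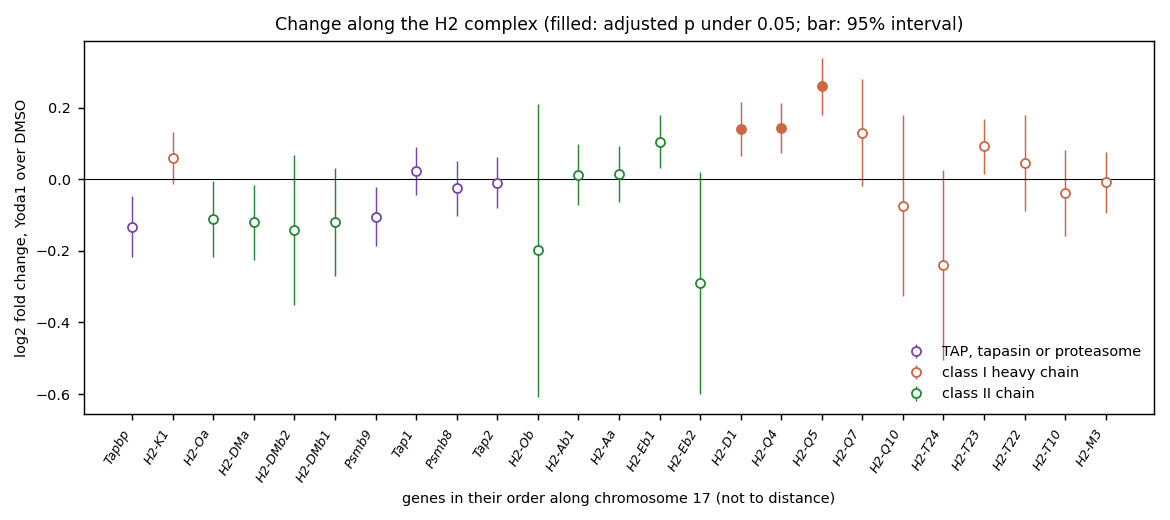
Log2 fold change, Yoda1 over DMSO, of 25 tested genes of the H2 complex in their order along chromosome 17 (not to distance), with 95% intervals and filled points for an edgeR adjusted p under 0.05. The filled points are H2-D1, H2-Q4 and H2-Q5, which are next to each other among the genes drawn. The class II, transporter and proteasome genes between H2-K1 and H2-D1 are open. H2-Q8 and H2-Q9, also called higher, had no entry by those symbols in the annotation and are not drawn.

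None of the 6 peptide loading and trimming genes was called, with a median log2 fold change of 0.017. The nearest was Tapbp, named after its values were seen, which encodes tapasin, the bridge between the transporter and class I, at 722 ± 50.7 CPM in DMSO and 659 ± 29.6 CPM in Yoda1 (-0.13, edgeR adjusted p = 0.0502). None of the 8 proteasome partners was called. Their log2 fold changes were -0.025 for Psmb10, 0.064 for Psme1, 0.060 for Psme2, 0.034 for Psme3, 0.063 for Pomp, 0.034 for Psmb5, 0.050 for Psmb6 and -0.018 for Psmb7, and their adjusted p-values were all above the threshold. Psme1, Psme2 and Psme3 encode proteasome activators, and Pomp an assembly factor.

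Of the 7 other class II chains tested, 6 had a log2 fold change below 0 and none was called, with a median of -0.12. These include the peptide exchange chains H2-DMa (-0.12), H2-DMb1 (-0.12) and H2-DMb2 (-0.14) and their modulators H2-Oa (-0.11) and H2-Ob (-0.20). H2-Eb1, the I-E beta chain, was the one above 0, at 201 ± 8.51 CPM in DMSO and 217 ± 7.17 CPM in Yoda1 (0.11, edgeR adjusted p = 0.0733). These genes were named after their values were seen. Among 7 endosomal processing genes tested, 1 was called, beside 10.9% of all genes tested. Ctsb, the cysteine protease cathepsin B, measured 141, 146, 145 and 139 CPM in DMSO and 156, 158, 159 and 154 CPM in Yoda1, without overlap (0.14, SE 0.036, edgeR adjusted p = 0.0134). With upper-quartile scaling it was not called (0.11, adjusted p = 0.0579), and its adjusted p ran from 0.0108 to 0.0579 over the 15 alternatives. The protease most tied to invariant chain cleavage, Ctss, had a log2 fold change of -0.014. None of the 4 costimulatory ligands Cd80, Cd86, Cd40 and Icosl was called.

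The regulators of these genes were mixed. Of 12 transactivators, 2 were higher and 1 was lower, beside 6.04% and 4.84% of all genes tested. Irf8, an interferon regulatory factor, rose from 218, 229, 222 and 239 CPM in DMSO to 307, 295, 332 and 301 CPM in Yoda1 (log2 fold change 0.45, SE 0.040, edgeR adjusted p = 2.04e-09). Its groups were far apart. Irf1, which binds interferon-stimulated response elements, rose from 539 ± 12.0 to 596 ± 10.5 CPM (0.14, SE 0.034, edgeR adjusted p = 0.0048).

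Nfyb, a subunit of the trimer that binds the CCAAT box, measured 55.5, 58.9, 56.3 and 57.4 CPM in DMSO and 48.5, 46.8, 44.7 and 47.9 CPM in Yoda1 (log2 fold change -0.28, SE 0.048, edgeR adjusted p = 0.000145). It was the one gene of the 8 lists called lower, and its groups did not overlap. The other subunits Nfya (-0.12, edgeR adjusted p = 0.108) and Nfyc (0.15, edgeR adjusted p = 0.102) were not called. Nfya was called lower with upper-quartile scaling (-0.15, edgeR adjusted p = 0.0406), and its adjusted p ran from 0.0406 to 0.302 over the 15 alternatives. Nfyc was called higher without Yoda1 replicate 2 (0.20, edgeR adjusted p = 0.0350, with a range of 0.0350 to 0.308).

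Nlrc5, the class I coactivator, measured 846, 794, 900.2 and 819.6 CPM in DMSO and 888, 857, 802 and 888 CPM in Yoda1, with overlap (0.032, SE 0.040, edgeR adjusted p = 0.673). Ciita, the class II coactivator, was low at 23.3, 23.2, 23.7 and 21.7 CPM in DMSO and 20.02, 20.3, 21.4 and 20.9 CPM in Yoda1. All its Yoda1 libraries lay below its DMSO libraries, but it was not called (-0.16, SE 0.066, edgeR adjusted p = 0.132). The subunits of the X box complex were not called, with log2 fold changes of -0.010 for Rfx5, 0.078 for Rfxap and -0.050 for Rfxank, nor were Creb1 (-0.10, edgeR adjusted p = 0.145) and Irf2 (0.019, edgeR adjusted p = 0.835). Creb1 was called lower with upper-quartile scaling (-0.13, edgeR adjusted p = 0.0456, with a range of 0.0456 to 0.346 over the 15 alternatives).

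In the interferon gamma list, 2 of 6 genes were higher, beside 6.04% of all genes tested. Ifng itself measured 95.5, 102, 105 and 120.0 CPM in DMSO and 260.1, 257, 283 and 272 CPM in Yoda1 (log2 fold change 1.35, SE 0.055, edgeR adjusted p = 1.08e-11), a fold of 2.54. The lowest Yoda1 library was above the highest DMSO library by more than the range of either group. Jak2, a kinase of the interferon gamma receptor, measured 734, 763, 764 and 767 CPM in DMSO and 897, 904, 858 and 860.2 CPM in Yoda1 (0.22, SE 0.034, edgeR adjusted p = 5.05e-05). The receptor chains Ifngr1 (0.014) and Ifngr2 (0.078), the kinase Jak1 (-0.028) and the inhibitor Socs1 (-0.037) were not called.

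Of the 8 markers of NK cells or ILC1s, which are known producers of interferon gamma, 3 were higher in Yoda1, where 6.04% of all genes tested were. Tbx21 went from 20.9 ± 2.50 to 32.1 ± 1.65 CPM (0.62, edgeR adjusted p = 3.86e-07), Eomes from 37.8 ± 1.82 to 43.8 ± 2.49 CPM and Prf1 from 385 ± 22.8 to 423 ± 8.85 CPM. The other 5 were not called, with log2 fold changes of 0.20 for Klra8, 0.071 for Gzma, -0.052 for Klrk1, -0.21 for Klrb1c and -0.23 for Ncr1. The list summed to 829 to 918 CPM in DMSO and 890 to 959 CPM in Yoda1, with overlap. None of the 7 T cell markers tested was called. Their sum was 114 to 121.2 CPM in DMSO and 118.7 to 126.1 CPM in Yoda1, also with overlap. The part of NK cells, ILC1s or T cells in the Ifng level was not tested. Ifng shares exon positions with Gm49751 on the same strand, so a part of its counts may belong to that gene.

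**Figure D5:**
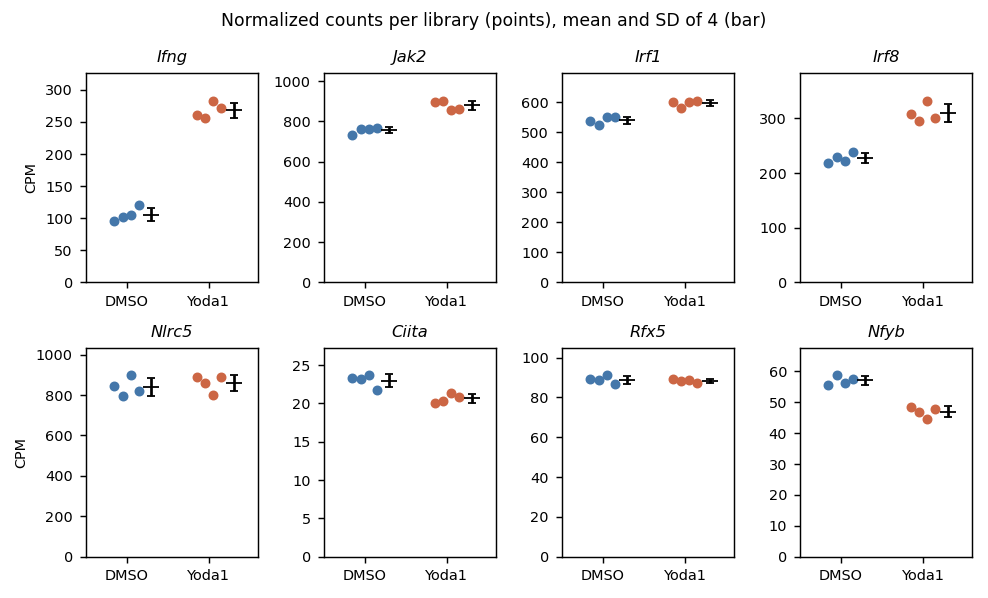
CPM per library (points) with the mean and SD of 4 (bars) for Ifng, Jak2, Irf1, Irf8, Nlrc5, Ciita, Rfx5 and Nfyb in DMSO (blue) and Yoda1 (orange), each axis from 0. Ifng shows the widest gap (105.6 to 268 CPM in the means), Nlrc5 and Rfx5 overlap, and Ciita and Nfyb lie lower in Yoda1.

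Of the tested member and pathway list genes whose window held the spaced motif pair, H2-D1 (0.14) and B2m (0.12) were called higher. H2-K1 (0.059), H2-Aa (0.016) and H2-M3 (-0.0087), which encodes a nonclassical class I chain, were not. Over all genes tested, 6.04% were called higher. The pair was chosen after the promoters of the members had been seen, so these calls are no test of the pair. The genes outside the lists among the 45 windows with the pair were not looked up. A difference between the listed genes was not tested beyond the ratios above. H2-Q4, called higher, has a window in the RefSeq table without the pair.

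The genes whose profiles over the 8 libraries were most like those of 3 members were found by the root mean square difference of log2 CPM, each centred on its own mean. For H2-K1 these were Gnb2l1 (0.012), Cotl1 (0.015) and Nono (0.015). For Tap1 they were Galnt2 (0.012), Tmem173 (0.012) and Fbxo3 (0.016), and for Cd74 they were Slc39a4 (0.0089), Ctsd (0.0098) and Ppp1ca (0.013). None of these 9 genes was called between the groups.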

How the data were processed

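The authors deposited whole-number counts of reads on each gene, listed by symbol, for each of the 8 libraries, without normalization. Libraries were made with a poly(A) selection and a directional kit. The submitters' processing notes name TopHat and mm10, whereas BBMap and Cufflinks, after FastQC and FASTX Trimmer, are those of the paper's methods. The read length, the annotation and whether counting used strand are not given in the sources used here. Genes were filtered with filterByExpr (minimum count 10, minimum total 15), scaled with TMM and compared in R 4.3.3 by the robust quasi-likelihood test of edgeR 4.0.16 with Benjamini-Hochberg adjustment at 0.05. A standard error is the absolute log2 fold change over the root of F, and a 95% interval is 1.96 standard errors either way, not adjusted for the number of genes. Intervals and the limit of 3 counts cover counting error or the spread between these libraries only. Ratios were compared by two-sided exact permutation tests (scipy 1.17.1). Lengths, shared windows and exon overlaps came from GENCODE M21 (GRCm38), and promoters from RefSeq (GRCm38.p6). Alternatives were DESeq2 1.42.0, limma-voom (limma 3.58.1), 2 other scalings, 2 other filters, a block on the replicate number, and leaving out each library. The genes named were the 10 members, the called genes of each list, every transactivator and proteasome partner, and the nearest profiles of H2-K1, Tap1 and Cd74. The members and lists were chosen with earlier results of these data known. Of the listed genes, 1 pathway gene and 1 marker are not reported here and were left out of the list counts. The fits were tested on simulated data.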

Additional observations from a re-analysis of the deposited data

Results flagged for a closer look

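Among the 37 genes followed through all alternatives, the highest and lowest library of each group of 4 were checked for a library far from the others, and 3 of 74 groups held one, where chance gives about 1 in 20 groups (3.7 of 74). Jak2 was at 734 CPM in DMSO replicate 1, below 763 CPM in the next library. Psmb10 was at 175.6 CPM in DMSO replicate 4, below 186 CPM in the next. Psme3 was at 171 CPM in DMSO replicate 2, below 177 CPM in the next. None of the 10 members held such a library.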

How the results depend on the processing

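The number of members called higher was 2, and it was 1 with library size only, 0 with upper-quartile factors, 0 with the replicate block and 0 to 2 when each library was left out. The number called lower was 0, and it was 1 (Psmb9) with upper-quartile factors and 0 to 1 with a library left out. Over all genes the 592 lower became 958 with upper-quartile factors and 367 to 677 with a library left out. The pathway genes called lower went from 1 to 2 with library size only, 4 with upper-quartile factors, 3 with no filter on low counts, 2 with at least 10 counts in every library, and 1 to 3 with a library left out. Over 37 genes and 15 alternatives, 505 values kept their direction and side of the threshold, 20 lost the call, 5 gained it and 25 changed sign, all near 0 and not called. With library size only these were Cd74 (-0.013), H2-Aa (-0.0061), H2-Ab1 (-0.0082) and Irf2 (-0.0029). With upper-quartile factors they were Tap1 (-0.0087), Cd74 (-0.022), H2-Aa (-0.015), H2-Ab1 (-0.017) and Irf2 (-0.012). With a library left out, the values ran from -0.029 to 0.016 for Tap2, -0.053 to 0.0049 for Psmb8, -0.0049 to 0.027 for Cd74, -0.014 to 0.043 for H2-Aa, -0.018 to 0.052 for H2-Ab1, -0.0010 to 0.052 for Psmb5, -0.050 to 0.0090 for Psmb7, -0.022 to 0.0027 for Rfx5 and -0.0093 to 0.047 for Irf2. The causes were not tested. The sources do not say whether the replicate numbers pair the libraries. No pairing was visible, as the deviations of same-numbered libraries correlated at 0.048, 0.071, -0.028 and 0.00023. With the number as a block, 548 genes were higher and 418 lower, while H2-D1 (adjusted p = 0.0655) and B2m (0.0698) were not called by edgeR. With each DMSO library left out in turn, the order of the 10 genes per kb was the same.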

Other observations

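A pair of class I symbols outside the lists was looked at after the values were seen. H2-L had 1103 to 2331 counts per library, at 104 ± 34.9 CPM in DMSO and 100.4 ± 25.6 CPM in Yoda1, although the mice are labelled C57BL/6, a strain whose H-2b haplotype carries no H2-L gene. Its level spanned 60.4 to 146 CPM over the 8 libraries, a wider relative spread than that of H2-K1 or H2-D1, with a log2 fold change of -0.045 (SE 0.313, edgeR adjusted p = 0.952). GENCODE M21 holds no H2-L symbol, so the sequence behind these counts was not compared with H2-D1. H2-K2 stood at 16.2 ± 0.604 CPM in DMSO and 18.2 ± 2.26 CPM in Yoda1 (0.16, edgeR adjusted p = 0.212). H2-Q6, H2-M2 and H2-Ea-ps had 0 counts in every library, where H2-Q7 had 3976 to 6909.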
